A study of Mus musculus with 10 samples.

Results

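The nuclear-encoded genes of the mitochondrial respiratory chain were taken from a table of expression levels by their symbols: the NADH dehydrogenase subunits (Nduf), the succinate dehydrogenase subunits (Sdh), the cytochrome bc1 subunits (Uqcr) with Cyc1, the cytochrome c gene Cycs, the cytochrome c oxidase subunits (Cox4 to Cox8) and the ATP synthase genes (Atp5). The rule found 86 of the 21101 genes in the table: 35 in complex I, 4 in complex II, 9 in complex III, 1 for cytochrome c, 20 in complex IV and 17 in complex V. Ndufa4 and its paralogue Ndufa4l2 were counted with complex IV, because the Ndufa4 protein is a subunit of that complex. The rule goes by symbol, so it also takes in Atp5s and Atp5sl, whose products are not structural subunits of the ATP synthase.

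Levels were measured by RNA sequencing of mouse neural stem cell lines that all lacked p53 and had all been transduced with IDH1(R132H), a mutant isocitrate dehydrogenase. Control NSC#1 and Control NSC#2 were the 2 control lines, and mA16d#4, mA19d#4 and mA19d#7 were the 3 lines with Atrx deleted. Atrx encodes a chromatin remodeller that takes part in laying down the histone variant H3.3, and the title of the series concerns its place in neuronal differentiation. Every line gave 1 library from proliferation medium, which held 20 ng/ml of both EGF and bFGF, and 1 library from differentiation medium, a neural basal medium with B27 and no growth factors in which cells spent 8 days. The groups therefore hold 2, 2, 3 and 3 libraries. The labels do not say how the lines were derived or whether a line is 1 clone. The p-values here rest on the spread between libraries within the groups, pooled over both media. Each line was sequenced once per medium and so enters this spread in both. The main fit treats the libraries of a line as independent and does not pair them.

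The respiratory chain passes electrons from NADH (complex I) or succinate (complex II) through ubiquinone to complex III, from there through cytochrome c to complex IV and on to oxygen. Complexes I, III and IV pump protons across the inner mitochondrial membrane, and complex V, the ATP synthase, uses the gradient to make ATP. The mitochondrial genome encodes part of the subunits of every complex except complex II, and the nucleus encodes the rest. The genes described here are nuclear genes taken by symbol, so a subunit with another symbol is not among them. Neural stem cells are known to draw largely on glycolysis and neurons largely on respiration, which gives these genes an interest in a study of differentiation.

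The level of Atrx was 127 to 163 TPM (a level that is corrected for transcript length and scaled to the same total in each library) in the 4 control libraries and 42.8 to 74.0 TPM in the 6 Atrx-deleted libraries. It was lower in the Atrx-deleted lines by the test across all genes in both media (adjusted p = 0.0389 and 0.0204, limma). The library labelled mA19d#7 in differentiation medium was unlike the other library of its line: over all genes their rank correlation was 0.926, below the 0.932 between the libraries of Control NSC#1, and its closest library was that of mA16d#4 in proliferation medium (0.957). Every library was closest to one of another line, as Control NSC#1 was to Control NSC#2 in proliferation medium (0.983, against 0.932 with its own line). A closest library of another line is thus no mark of the library labelled mA19d#7. Its closest library came from the other medium. The same held for mA16d#4 in proliferation medium (0.957). It also held for mA19d#4 in differentiation medium, closest to mA19d#7 in proliferation medium (0.9603, against 0.9599 with its own line). In proliferation and differentiation medium the libraries labelled mA19d#7 held 4.4 and 112 TPM of Ndufs5 and 0.00548 and 37.3 TPM of Smim20. Whether the label was mixed up cannot be told from the labels. Counts of genes that passed are given with and without the library labelled mA19d#7 in differentiation medium. So are several, though not all, of the single genes. The sample codes of all control libraries begin differently from those of all Atrx-deleted libraries. The labels do not say what the code means, and an effect of whatever it marks cannot be told apart from that of Atrx deletion. Markers of microglia summed to at most 11.3 TPM and those of endothelium to at most 6.74 TPM in any library, against 13652 TPM or more for the 8 neural stem cell markers. The 7 astrocyte markers summed to 1325 and 1880 TPM in the control lines in proliferation medium and to 7612 and 8723 TPM in differentiation medium, against 1751 to 3223 TPM and 2523 to 4449 TPM in the Atrx-deleted lines. Of the 7, Slc1a2, Slc1a3 and Apoe rose with the medium in the control lines (limma). Apoe was lower in the Atrx-deleted lines in differentiation medium (limma). The 7 did not move together: with the medium 4 were higher in the control lines (median log2 difference 0.05). Against the control lines, 5 were higher in the Atrx-deleted lines in proliferation and 4 in differentiation medium (medians 0.81 and 0.16). The sums thus do not stand for all 7 genes. The neuron markers summed to 676 to 933 TPM in proliferation medium over all lines, and in differentiation medium to 814 and 843 TPM in the control and 428 to 1211 TPM in the Atrx-deleted lines. The oligodendrocyte markers summed to 197 to 580 TPM over the 10 libraries. The part of these markers in the results was not tested. In bulk RNA, fewer cells of a type and less RNA per cell cannot be told apart.

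Most of the respiratory chain was strongly expressed. The median gene had a mean of 151 TPM over the 10 libraries, 78 of the 86 genes had at least 10 TPM and 58 had at least 100 TPM. Cox8a (complex IV) was highest at 1187 TPM, followed by Atp5b, the catalytic beta subunit of the ATP synthase, at 1128 TPM and Uqcrh, the hinge protein of complex III, at 767 TPM. The median level by complex was 292 TPM in complex III, 257 TPM in complex II, 212 TPM in complex V, 134 TPM in complex IV and 115 TPM in complex I. Cycs was far lower than the complexes that cytochrome c connects, at 29.04 TPM. With its reading frame 3 pseudogene transcripts share at least 95% identity, and their part in its level was not tested. Such copies were found for 21 of the 86 genes, with the most, 7, for Atp5l. The 4 genes under 1 TPM on average were all in complex IV. A gene was tested where 2 or more libraries reached 1 TPM, which left 83; Cox4i2, Cox7b2 and Cox8c fell below that limit.

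All 86 genes together took 1.89% to 2.38% of the TPM of a library. The sum was 18853 and 19221 TPM in the control lines in proliferation medium and 19165 and 19773 TPM in differentiation medium. In the Atrx-deleted lines it was 18902 to 20308 TPM in proliferation medium and 19417 to 23706 TPM in differentiation medium, where the highest value belonged to mA16d#4. Sums of complexes I, III and V overlapped between control and Atrx-deleted lines in both media. The sum of complex IV did not: it was 5176 and 5178 TPM (control) against 5876 to 6801 TPM (Atrx-deleted) in proliferation medium, and 5406 and 5557 TPM against 5793 to 7148 TPM in differentiation medium. For complex II the groups overlapped in proliferation medium (922 and 927 TPM against 915 to 1056 TPM) and did not in differentiation medium (1010 and 1021 TPM against 1080 to 1345 TPM). These sums are dominated by a few abundant genes, such as Cox8a, and are given as descriptions with no test.

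**Figure D1:**
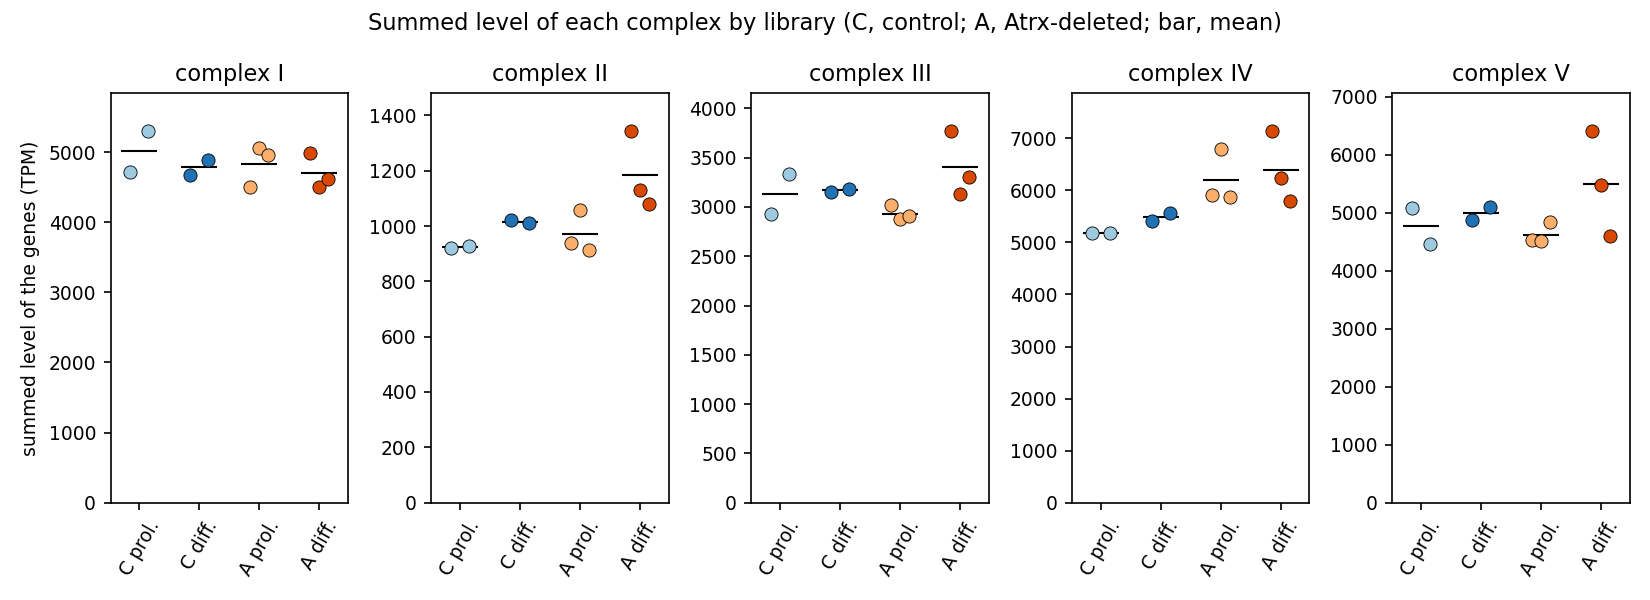
Summed level in TPM (vertical axis, from 0) of the genes of each complex, with 1 point per library, 4 groups along the horizontal axis (control and Atrx-deleted lines, each in proliferation and differentiation medium) and a bar at the group mean. Complex IV is the complex whose points do not overlap between control (5176 to 5557 TPM) and Atrx-deleted lines (5793 to 7148 TPM) in either medium.

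The first question was whether the respiratory chain differed between Atrx-deleted and control lines. In proliferation medium none of the 83 tested genes passed at an adjusted p of 0.05 (limma, Benjamini-Hochberg over all 15660 tested genes), where 0.460% of all genes passed. At an unadjusted p under 0.05 there were 10 (12.05% of the members, against 13.7% of all genes), 5 higher and 5 lower. The libraries of the groups did not overlap for 29 genes (34.9%, against 38.0% of all genes). The median log2 difference, on the scale of log2(TPM + 1) used throughout, was 0.05 over the 83 genes and -0.02 over all genes.

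In differentiation medium 2 of the 83 genes passed, Ndufb8 (higher) and Cox6b2 (lower), a share of 2.41% beside 2.89% of all genes. At an unadjusted p under 0.05 there were 15 (18.1%, against 20.2% of all genes), 6 higher and 9 lower, and 26 did not overlap between groups (31.3%, against 36.3%). The median was -0.0015, beside 0.02 over all genes. Without the library labelled mA19d#7 in differentiation medium, 4 members passed in this comparison (4.82%, against 5.97% of all genes): Ndufb8, Atp5g1, Ndufb6 and Ndufc2.

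The 95% confidence interval lay within a 2-fold change either way for 61 of the 83 genes in proliferation medium (73.5%, against 49.9% of all genes) and for 60 in differentiation medium (72.3%, against 46.3%). Among genes with a mean of at least 10 TPM the gap was smaller, at 78.2% of members against 68.6% of all such genes in proliferation medium and 76.9% against 64.3% in differentiation medium. The median SD between lines on the log2 scale, members first and all genes second, was 0.13 and 0.15 (control) and 0.24 and 0.26 (Atrx-deleted) in proliferation medium, and 0.11 and 0.14 (control) and 0.29 and 0.35 (Atrx-deleted) in differentiation medium. At 10 TPM or more the members' SD was not lower than that of all genes in 3 of these 4 groups. A difference past 2-fold was estimated for 7 genes in proliferation medium (8.43%, against 8.01% of all genes) and for 5 in differentiation medium (6.02%, against 12.3%).

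**Figure D2:**
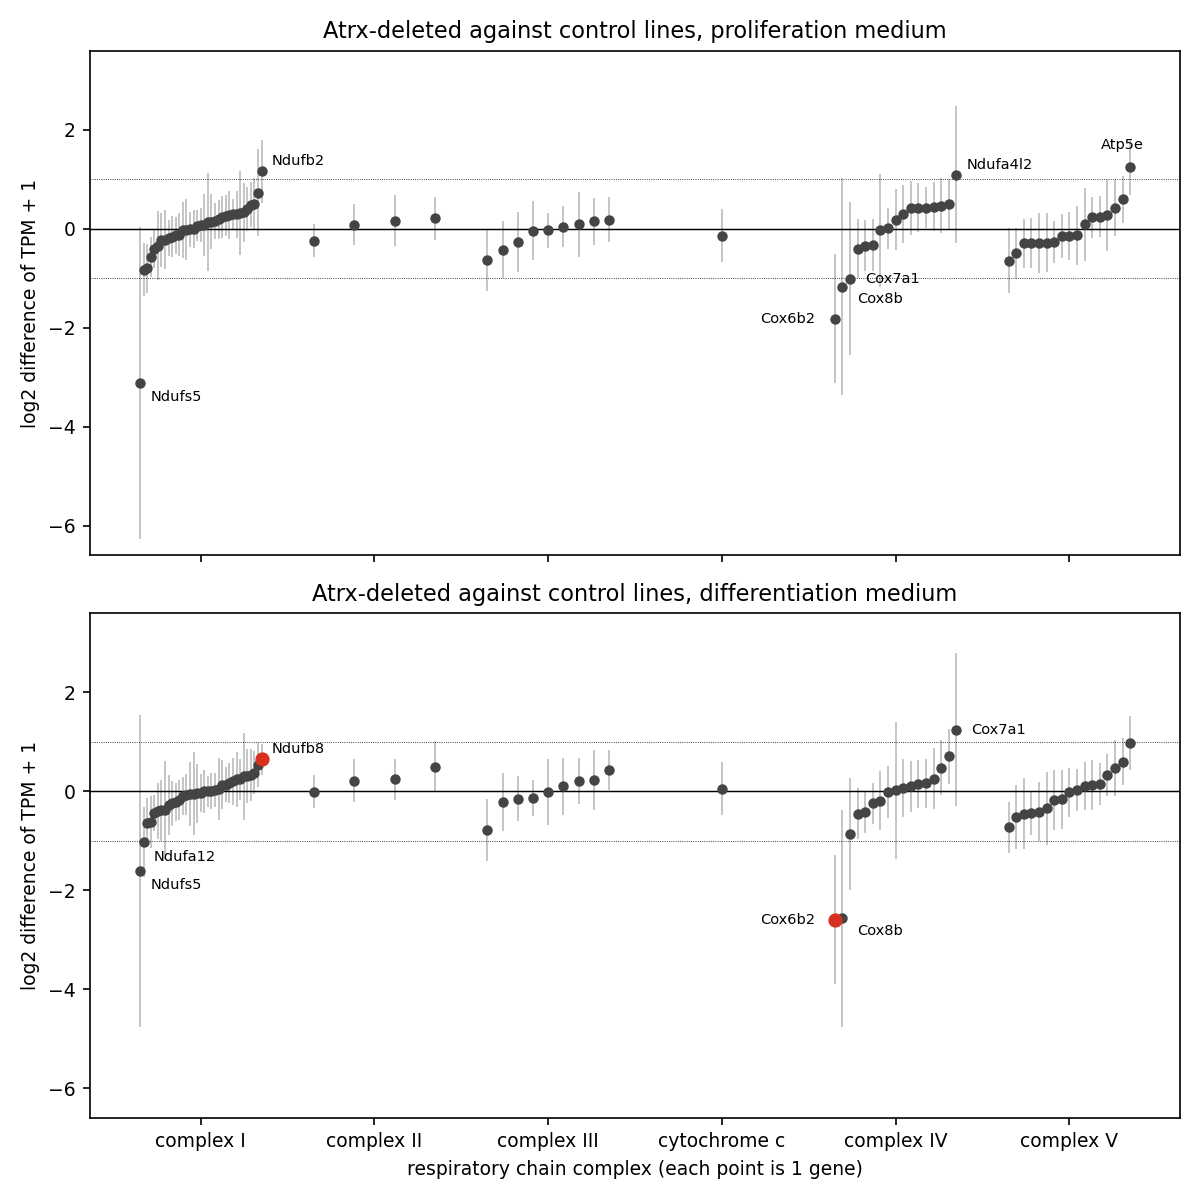
Log2 difference of TPM + 1 between Atrx-deleted (n = 3) and control lines (n = 2), with its 95% confidence interval, for each of the 83 tested genes, sorted within its complex; dotted lines mark a 2-fold change and red points passed an adjusted p of 0.05. No point is red in proliferation medium (upper panel), and Ndufb8 (0.65) and Cox6b2 (-2.59) are red in differentiation medium (lower panel).

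Complex I takes electrons from NADH through a flavin and a chain of iron-sulfur clusters to ubiquinone. Its catalytic core is encoded in the nucleus by 7 of these genes, which hold the flavin, the iron-sulfur clusters and part of the quinone site. None of the 7 differed by the test, and all 7 confidence intervals lay within 2-fold in both comparisons of Atrx-deleted with control lines. The most negative log2 difference among them was that of Ndufs7, -0.22 in proliferation medium and -0.28 in differentiation medium. The larger differences in complex I lay among the other 28 subunits, which are accessory and serve assembly and stability.

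Ndufs5, an accessory subunit on the side of complex I that faces the intermembrane space, was nearly lost from 3 of the 10 libraries. In proliferation medium its level was 105 and 97.55 TPM in the control lines, 87.2 TPM in mA16d#4, 2.47 TPM in mA19d#4 and 4.40 TPM in mA19d#7. After differentiation the control lines held 121 and 139.8 TPM, mA16d#4 held 113 TPM, and the level was 5.23 TPM in mA19d#4 and 112 TPM in the library labelled mA19d#7. Both libraries of mA19d#4 and the proliferation library of mA19d#7 were thus low, and mA16d#4, also deleted of Atrx, was near the control lines. The lowest of the 7 other libraries was 16.7 times the highest of these 3. The comparison of groups did not pass: the log2 difference was -3.11 ± 1.42 (SE, adjusted p = 0.370, limma) in proliferation medium and -1.60 ± 1.42 (adjusted p = 0.565) in differentiation medium, or -2.30 (adjusted p = 0.401) without the library labelled mA19d#7.

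Ndufs5 lies at chr4:123712710-123718186 (RefSeq, GRCm38.p6). Its 5 tested neighbours within 200 kb did not share a drop of this size. Akirin1, the next gene on one side, was at 61.2, 69.0 and 90.1 TPM in the 3 libraries low in Ndufs5 and at 89.7 to 136 TPM in the others. Macf1, on the other side, was at 82.6 to 107 TPM in those 3 libraries and at 111 to 285 TPM in the others. Mycbp was at 14.4 to 16.2 TPM against 16.9 to 30.2 TPM, and Rragc at 77.5 to 107 TPM against 108 to 152 TPM. Rhbdl2 was at 4.26 and 5.21 TPM in the 2 low libraries from proliferation medium and at 0.81 TPM in mA19d#4 after differentiation, against 2.17 to 7.88 TPM. For Macf1, Mycbp and Rragc the 3 libraries were thus also the lowest, though by far smaller steps. Ndufs5 has 1 pseudogene transcript with at least 95% identity to its reading frame.

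**Figure D3:**
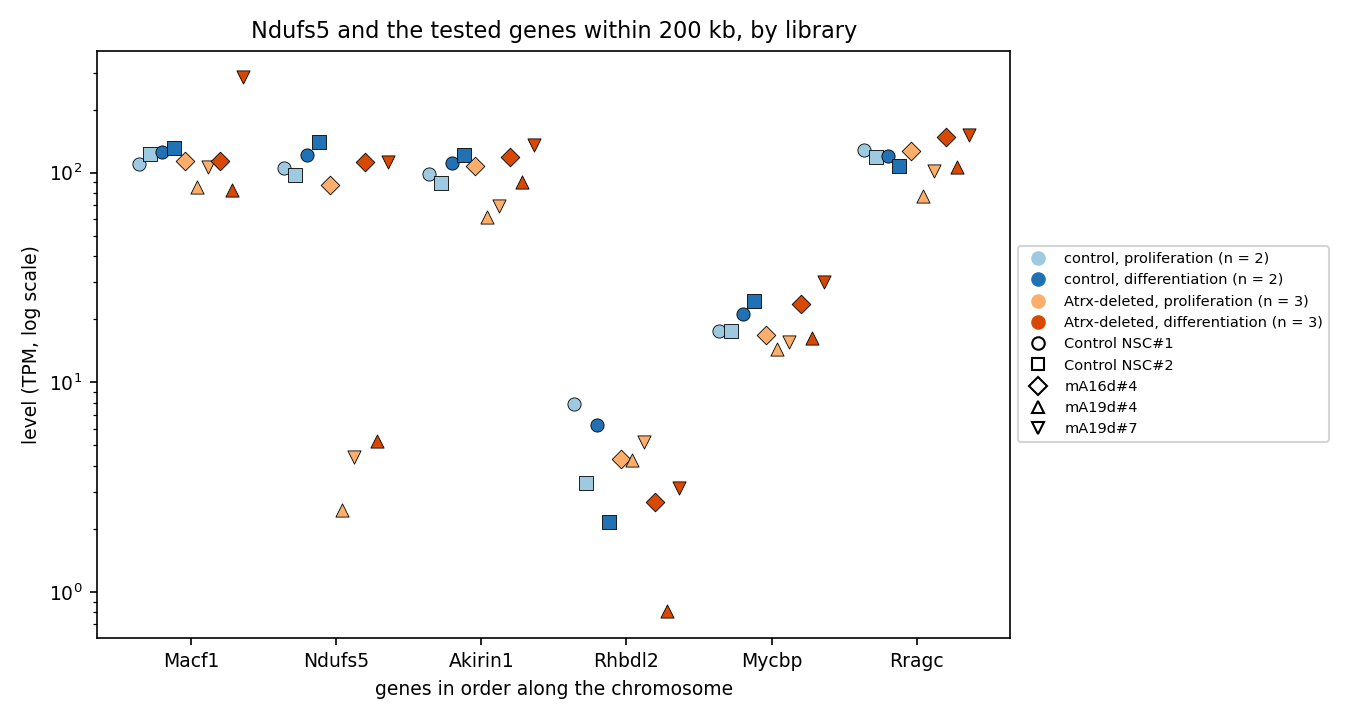
Level in TPM (vertical axis, log scale) of Ndufs5 and its 5 tested neighbours within 200 kb, in order along the chromosome, with 1 point per library; colour gives the group and shape the cell line. For Ndufs5, 3 libraries of lines labelled mA19d lie at 2.47 to 5.23 TPM and the other 7 at 87.2 to 139.8 TPM, and no neighbour shows such a gap between the same libraries.

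Ndufb8, an accessory subunit of the membrane arm whose protein is lost when complex I fails to assemble, at chr19:44548571-44555442, was higher in Atrx-deleted lines in differentiation medium. Its level there was 107 and 109.9 TPM in the control lines and, in turn, 163, 167 and 182 TPM in mA16d#4, mA19d#4 and the library labelled mA19d#7. The group means were 108 ± 2.02 TPM (SD, n = 2) and 171 ± 10.3 TPM (n = 3), and no libraries overlapped. The log2 difference was 0.65 ± 0.14 (SE, adjusted p = 0.0424, limma), or 0.60 (adjusted p = 0.0391) without the library labelled mA19d#7. In proliferation medium the control lines were at 106 and 128 TPM and the Atrx-deleted lines at 135 to 146 TPM (log2 difference 0.29 ± 0.14, adjusted p = 0.401). In 9 of 21 other settings the difference in differentiation medium passed, with adjusted p-values from 0.0342 to 0.306. In the same comparison all 12 proliferation genes were higher and 10 of them passed (Mki67 among them). The 12 summed to 301 and 307 TPM in the control lines and to 606 to 1311 TPM in the Atrx-deleted lines. Their part in the result was not tested.

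Ndufc2, a small accessory subunit of the membrane arm, at chr7:97400003-97407800, was singled out after its values were seen. In proliferation medium it was at 438 and 458 TPM (control) and 225, 260 and 291 TPM (Atrx-deleted). In differentiation medium it was at 235 and 272 TPM (control) and 125, 160.0 and 216 TPM (Atrx-deleted). The groups did not overlap in either medium, and both kinds of line were lower in differentiation medium. The log2 difference between Atrx-deleted and control lines was -0.80 ± 0.22 (SE, adjusted p = 0.159, limma) in proliferation and -0.63 ± 0.22 (adjusted p = 0.151) in differentiation medium. Without the library labelled mA19d#7 in differentiation medium these were -0.80 (adjusted p = 0.0503) and -0.83 ± 0.18 (adjusted p = 0.0322).

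Ndufb2, another accessory subunit of the membrane arm, had the highest positive log2 difference of complex I in proliferation medium, 1.16 ± 0.29 (adjusted p = 0.129, limma). Its level was 35.1 and 30.9 TPM (control) and 52.9, 90.8 and 87.4 TPM (Atrx-deleted). In differentiation medium the groups overlapped, at 74.8 and 56.1 TPM against 46.0 to 82.4 TPM. Ndufa12, an accessory subunit of the peripheral arm, had the second most negative difference of complex I in differentiation medium after Ndufs5, -1.02 ± 0.31 (adjusted p = 0.110). It was at 34.9 and 40.6 TPM in the control lines and at 28.5, 14.9 and 13.6 TPM in the Atrx-deleted lines. Ndufa1, an X-linked membrane-arm subunit chosen here after its values were seen, was at 170 and 197 TPM in the control and 83.2 to 123 TPM in the Atrx-deleted lines in proliferation medium (log2 difference -0.82 ± 0.24, adjusted p = 0.173).

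Complex II, succinate dehydrogenase, also belongs to the citric acid cycle and is encoded wholly in the nucleus. None of its 4 genes passed in any of the 5 comparisons. Sdha, which carries the flavin, was the steadiest, at 191 to 259 TPM over the 10 libraries, with log2 differences of -0.24 and -0.0025 between Atrx-deleted and control lines in proliferation and differentiation medium. The membrane anchors Sdhc and Sdhd were at 341 to 636 TPM and at 239 to 388 TPM. Sdhb, the iron-sulfur subunit, was at 84.3 and 82.8 TPM (control) and 150.5, 83.5 and 131.9 TPM (Atrx-deleted) in differentiation medium (log2 difference 0.50 ± 0.23, adjusted p = 0.262, limma, or 0.42 with an adjusted p of 0.339 without the library labelled mA19d#7). The Atrx-deleted lines varied more among themselves for Sdhb than the control lines did.

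Complex III hands electrons from ubiquinol to cytochrome c. None of its 9 genes passed, and 7 of the 9 confidence intervals lay within 2-fold in proliferation medium and 8 in differentiation medium. Uqcrc2, a core protein with no redox centre of its own, had the most negative difference in both media. It was at 164 and 157 TPM (control) and 72.3, 112 and 136 TPM (Atrx-deleted) in proliferation medium, and at 178.5 and 157 TPM (control) and 112, 118 and 68.9 TPM (Atrx-deleted) in differentiation medium. The groups did not overlap in either medium, with log2 differences of -0.63 ± 0.28 (adjusted p = 0.365, limma) and -0.78 ± 0.28 (adjusted p = 0.161); without the library labelled mA19d#7 the latter was -0.54 (adjusted p = 0.224). Its partner Uqcrc1 did not follow it, at 107 to 177 TPM in the Atrx-deleted and 119 to 160 TPM in the control lines over both media. Cyc1, cytochrome c1, was at 264.5 and 244 TPM (control) and 386, 367 and 282 TPM (Atrx-deleted) in differentiation medium (0.43 ± 0.18, adjusted p = 0.225, or 0.57 with an adjusted p of 0.0651 without the library labelled mA19d#7). Uqcrfs1, the Rieske iron-sulfur protein, was at 314 to 412 TPM in all 10 libraries. Cycs, the mobile carrier itself, differed little between Atrx-deleted and control lines, with log2 differences of -0.14 and 0.05 and both confidence intervals within 2-fold.

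Complex IV reduces oxygen and has, for several subunits, a second gene used in particular tissues. Cox6b2, known from testis as the counterpart of the common Cox6b1, lies at chr7:4751792-4753094. In differentiation medium it was at 5.54 and 4.86 TPM in the control lines and at 0.00391, 0.0216 and 0.0534 TPM in the Atrx-deleted lines. The log2 difference was -2.59 ± 0.59 (SE, adjusted p = 0.0460, limma), or -2.61 (adjusted p = 0.0524) without the library labelled mA19d#7. In proliferation medium the control lines were at 8.81 and 8.86 TPM and the Atrx-deleted lines at 0.0510 TPM (mA16d#4), 3.12 TPM (mA19d#4) and 4.03 TPM (mA19d#7), with a log2 difference of -1.82 ± 0.59 (adjusted p = 0.220). The groups did not overlap in either medium. The call in differentiation medium held in 5 of 21 other settings, with adjusted p-values from 0.0104 to 0.303. The size depended on the scale: the log2 difference was -1.02 with a pseudocount of 5 TPM, -5.41 with one of 0.1 TPM and -8.29 on the deposited log2 values. The 0.00391 TPM of mA16d#4 is the lowest level in the deposited values (a log2 of -8), and Cox8b below also stands at it. The -8.29 thus rests on levels at or near that floor. Of the Cox6b pair, Cox6b2 made up 2.04% and 2.68% of the level in control lines in proliferation medium and 1.94% and 1.16% in differentiation medium. In Atrx-deleted lines its share was at most 1.29%, and Cox6b1 carried the rest. Of 5 testis germ cell markers, Dazl and Tnp1 stayed under 1 TPM in every library, and the 5 summed to 35.3 and 46.9 TPM in control and 13.8 to 48.6 TPM in Atrx-deleted lines in differentiation medium; their part in the result was not tested.

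The other tissue-restricted forms of complex IV were low. Cox4i2, known from lung, reached at most 1.70 TPM, and Cox7b2 and Cox8c stayed under 1 TPM in every library. The heart and skeletal muscle forms Cox6a2 and Cox7a1 reached at most 3.10 and 8.18 TPM. Cox8b, also a heart and muscle form, was at 2.85 and 11.2 TPM (control) and 0.00592, 2.38 and 7.35 TPM (Atrx-deleted) in proliferation medium, and at 25.4 and 11 TPM (control) and 0.00391, 6.55 and 2.56 TPM (Atrx-deleted) in differentiation medium. Its groups overlapped in proliferation medium and did not in differentiation medium, where the log2 difference was -2.57 ± 0.99 (adjusted p = 0.184, limma). The common forms Cox4i1, Cox6a1, Cox7b and Cox8a each carried at least 96.9% of the level of their set in every library, and Ndufa4 carried at least 99.3% beside Ndufa4l2. Cox8a, the highest gene of all, was at 827 and 929.9 TPM (control) and 1400, 1324 and 969 TPM (Atrx-deleted) in proliferation medium, and at 803 and 1059 TPM (control) and 1324, 1771 and 1464 TPM (Atrx-deleted) in differentiation medium. The groups did not overlap in either medium, and the log2 differences were 0.47 ± 0.25 (adjusted p = 0.440) and 0.71 ± 0.25 (adjusted p = 0.151).

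Complex V is built of a catalytic head (F1), a ring of subunit c in the membrane and the stalks that connect them. The F1 genes Atp5a1 and Atp5b, for the alpha and beta subunits, did not differ by the test, with log2 differences of -0.29 and -0.29 in proliferation medium and of -0.02 and 0.14 in differentiation medium. Atp5e, the small epsilon subunit of the central stalk, at chr2:174461075-174464101, had the largest positive difference of all 83 genes in proliferation medium. It was at 85.7 and 95.7 TPM (control) and 218, 198 and 234 TPM (Atrx-deleted) in proliferation medium, and at 106 and 153 TPM (control) and 179, 274 and 323 TPM (Atrx-deleted) in differentiation medium. No libraries overlapped in either medium. The log2 differences were 1.24 ± 0.25 (SE, adjusted p = 0.0683, limma) and 0.98 ± 0.25 (adjusted p = 0.0661). Without the library labelled mA19d#7 in differentiation medium the adjusted p-values were 0.0293 and 0.0763.

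Atp5e sits in a stretch of chromosome 2 where neighbours were also higher in the Atrx-deleted lines in proliferation medium. Of its 5 tested neighbours within 400 kb on the side of lower coordinates, Nelfcd, a subunit of the negative elongation factor, passed in proliferation medium (log2 difference 1.38 ± 0.20, adjusted p = 0.0222, limma). Stx16, a syntaxin of the Golgi, passed in both media (1.08, adjusted p = 0.0462, and 0.82, adjusted p = 0.0471). Gnas, Ctsz and Npepl1 did not pass, with differences of 1.33 (adjusted p = 0.119), 0.81 (adjusted p = 0.370) and 0.54 (adjusted p = 0.388) in proliferation medium. In differentiation medium Nelfcd (0.66, adjusted p = 0.102), Ctsz (1.18, adjusted p = 0.114), Npepl1 (0.34, adjusted p = 0.496) and Gnas (0.10, adjusted p = 0.902) did not pass, and the libraries of Gnas and Npepl1 overlapped. In proliferation medium Atp5e and all 5 neighbours were higher in each Atrx-deleted line than in either control line. Their part in the result for Atp5e was not tested.

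The second question was how the respiratory chain responded to differentiation medium. None of the 83 genes passed in the control lines, where 4.51% of all genes passed, or in the Atrx-deleted lines, where 0.0830% passed (limma, adjusted p of 0.05). At an unadjusted p under 0.05 there were 13 in the control lines (15.7% of members, against 19.9% of all genes; 8 higher and 5 lower) and 12 in the Atrx-deleted lines (14.5%, against 14.8%; 6 higher and 6 lower). The median log2 difference was 0.10 in both kinds of line, beside -0.01 and 0.01 over all genes, and 58 and 53 of the 83 differences were positive. Confidence intervals lay within 2-fold for 55 genes in the control lines (66.3%, against 40.6% of all genes) and 66 in the Atrx-deleted lines (79.5%, against 55.6%). In the same comparison 8 of 12 proliferation genes fell in the control lines, and none passed in the Atrx-deleted lines.

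Taking each line on its own, 9 of the 83 genes were higher in differentiation medium in all 5 lines (10.8%, against 11.2% of all genes) and 7 were lower in all 5 (8.43%, against 10.3%). The 9 were Cycs, Atp5g1, Atp5j2, Atp5s, Uqcr10, Ndufa11, Ndufb4, Ndufb7 and Ndufs5. Among the 7 were Ndufc2, Ndufb11, Cox6b2, Cox7a2l and Atp5g2. Both shares were near those of all genes, and the direction that lines have in common is given for each gene as a description. The count rests partly on the library labelled mA19d#7: in the other 4 lines 18 genes were higher (21.7%, against 18.6% of all genes) and 9 lower (10.8%, against 16.8%). For Ndufs5 the change between the libraries labelled mA19d#7 was 4.39 on the log2 scale. There a response to the medium and a mixed-up label cannot be told apart. In 3 genes both control lines moved one way and all 3 Atrx-deleted lines the other (3.61%, against 4.36% of all genes).

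The 3 genes for subunit c of the ATP synthase, Atp5g1, Atp5g2 and Atp5g3, encode the same mature protein behind different import sequences. None of the 3 passed between media in the main fit, and the balance between them is described with no test. Atp5g2 (chr15:102662868-102671047) was at 227 and 209.8 TPM in the control lines in proliferation medium and at 129.7 and 142 TPM in differentiation medium. In the Atrx-deleted lines mA16d#4, mA19d#4 and mA19d#7 it was at 213, 148 and 184 TPM in proliferation medium and at 162, 137 and 80.1 TPM in differentiation medium. Each line was lower in differentiation medium, by 0.11 to 1.19 on the log2 scale. Atp5g1 (chr11:96072793-96075694) went from 95.01 and 79.5 TPM to 146 and 112 TPM in the control lines and from 114, 138 and 145.5 TPM to 199.6, 238 and 153 TPM in the Atrx-deleted lines. Atp5g3 (chr2:73908447-73912464), the most abundant of the set, went from 649 and 399 TPM to 724 and 692 TPM in the control lines. In mA16d#4, mA19d#4 and the libraries labelled mA19d#7 it went from 624, 636 and 787 TPM to 1139, 1059 and 787 TPM.

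As a share of the summed level of the set, Atp5g2 went from 23.4% and 30.5% to 13.0% and 15% in the control lines, and from 22.4%, 16.1% and 16.5% to 10.8%, 9.57% and 7.85% in the Atrx-deleted lines. No library in differentiation medium reached the lowest share in proliferation medium. Atp5g3 took 58.0% to 70.5% in proliferation and 72.4% to 77.1% in differentiation medium, again without overlap. The shares are a description with no test. Gene by gene, the log2 difference of Atp5g2 was -0.68 ± 0.30 (SE, adjusted p = 0.229, limma) in the control and -0.57 ± 0.24 (adjusted p = 0.311) in the Atrx-deleted lines. With the cell line as a replicate block and without the library labelled mA19d#7 in differentiation medium, a setting added after seeing the data, Atp5g2 fell in the control lines (-0.68, adjusted p = 0.0322), was at -0.25 (adjusted p = 0.345) in the Atrx-deleted lines, and Atp5g1 rose in both (0.55, adjusted p = 0.0428, and 0.79, adjusted p = 0.0440). Atp5g2 has 2 and Atp5g1 has 1 near-identical pseudogene transcript, and Atp5g3 has none.

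**Figure D4:**
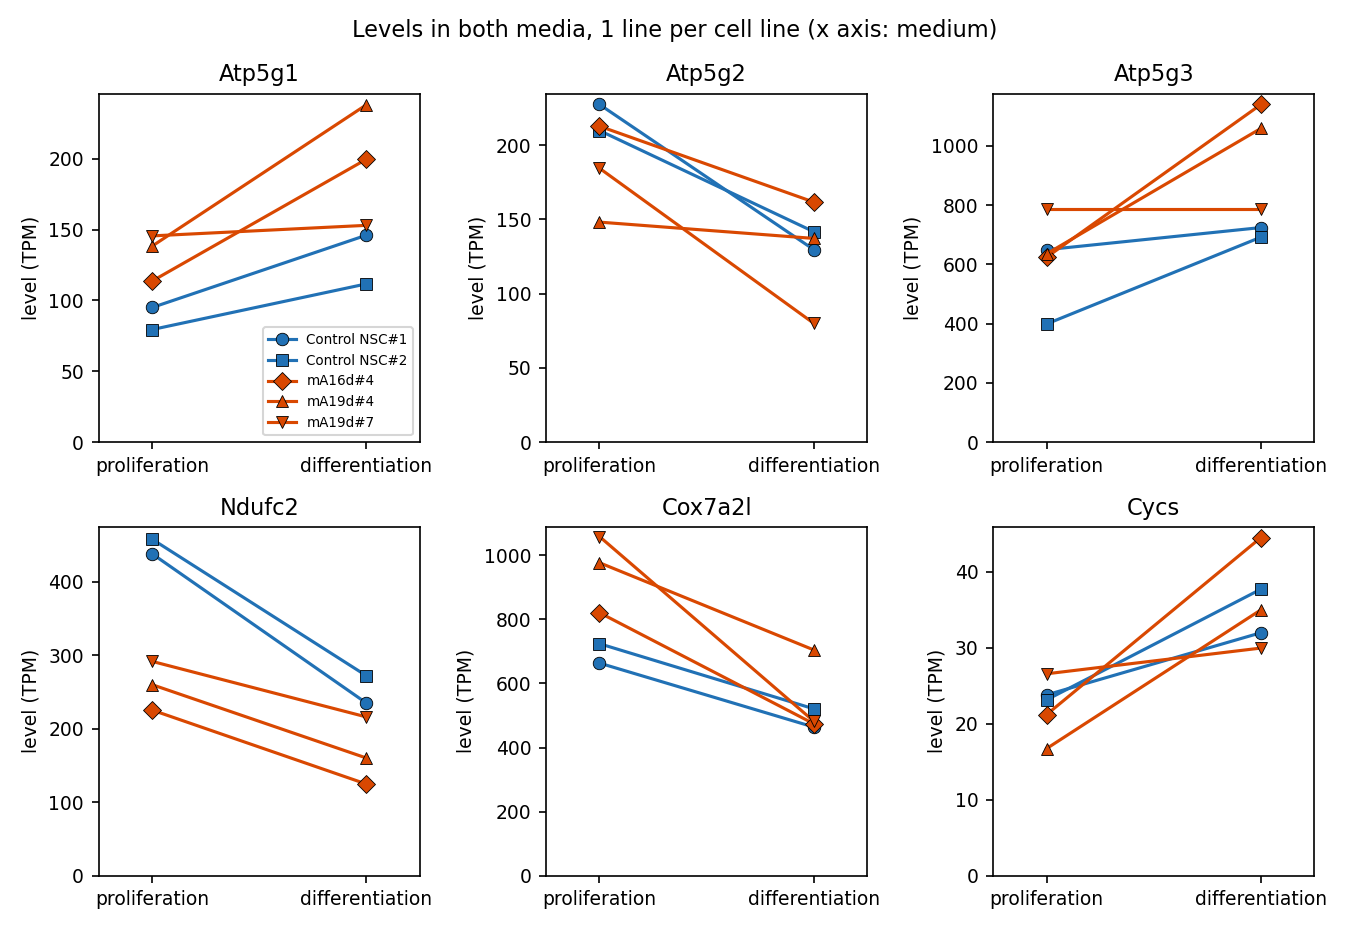
Level in TPM (vertical axis, from 0) in proliferation and differentiation medium (horizontal axis) for 6 genes, with 1 line per cell line, control lines in blue and Atrx-deleted lines in orange. Atp5g2, Ndufc2 and Cox7a2l are lower and Atp5g1 and Cycs higher in differentiation medium in all 5 lines, and Atp5g3 is higher in 4 lines and level in mA19d#7.

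The balance of the Cox7a set is described in the same way, with no test of the shares. Cox7a2l, whose protein helps to join complexes III and IV into supercomplexes, was at 664 and 724 TPM in the control lines in proliferation medium and at 464 and 521 TPM in differentiation medium. In the Atrx-deleted lines it was at 821, 977 and 1059 TPM in proliferation medium and at 474, 705 and 482 TPM in differentiation medium. The log2 difference between media was -0.49 ± 0.24 (adjusted p = 0.297, limma) in the control and -0.80 ± 0.20 (adjusted p = 0.132) in the Atrx-deleted lines. Its share of the Cox7a set was 84.5% to 87.9% in proliferation and 72.6% to 82.2% in differentiation medium, while Cox7a2, the common complex IV form, went from 11.9% to 15.4% up to 17.7% to 26.98%. The level of Cox7a2 itself was 108 to 193 TPM in proliferation and 131 to 176 TPM in differentiation medium, so the ranges of its level overlapped where those of its share did not.

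Cycs was at 23.8 and 23.1 TPM in proliferation medium and 32.0 and 37.7 TPM in differentiation medium in the control lines. The Atrx-deleted lines were at 21.2, 16.7 and 26.6 TPM and at 44.5, 34.97 and 29.9 TPM. No library in proliferation medium reached those in differentiation medium. The log2 difference was 0.55 ± 0.26 (adjusted p = 0.289, limma) in the control and 0.74 ± 0.22 (adjusted p = 0.175) in the Atrx-deleted lines. With the line as a block and without the library labelled mA19d#7 in differentiation medium, the latter was 1.03 ± 0.18 (adjusted p = 0.0474).

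Ndufc2, with the values given above, was lower in differentiation medium in all 5 lines, by 0.43 to 0.90 on the log2 scale. The difference was -0.82 ± 0.24 (adjusted p = 0.0859, limma) in the control and -0.66 ± 0.20 (adjusted p = 0.186) in the Atrx-deleted lines. Without the library labelled mA19d#7 in differentiation medium it was -0.82 (adjusted p = 0.0242) and -0.86 (adjusted p = 0.0382). Of the other complex I genes in the control lines, Ndufc1 had the smallest adjusted p (0.79 ± 0.22, adjusted p = 0.0759), with 32.0 and 42.9 TPM in proliferation and 58.8 and 71.8 TPM in differentiation medium. Ndufv3, a small subunit of the NADH-oxidising arm, had the most negative difference (-0.84 ± 0.27, adjusted p = 0.106) and went from 224 and 255 TPM to 135 and 131.7 TPM. Ndufb4 had the highest (1.32 ± 0.49, adjusted p = 0.160), which rested on 3.29 TPM in Control NSC#1 in proliferation medium beside 13.6 TPM in Control NSC#2 and 18.9 and 18.6 TPM in differentiation medium. In complex V, Atp5k, the e subunit of the membrane part, went from 19.5 and 20.5 TPM to 54.9 and 41.3 TPM in the control lines (1.21 ± 0.36, adjusted p = 0.0848). In the Atrx-deleted lines it was at 19.6, 27.4 and 27.1 TPM in proliferation and at 42.9, 20.8 and 46.1 TPM in differentiation medium.

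Many respiratory chain genes are known targets of the nuclear respiratory factor NRF1, and the oestrogen-related receptor ESRRA also binds several. The window from 250 bases before to 50 bases after the start was available from RefSeq (GRCm38.p6) for 70 of the 86 genes, as 76 windows. The letters GCGCATGC, the core of the NRF1 site, stood on either strand in 11 of these 76 windows (14.5%), against 2.71% of all 32851 windows and 4.71% of the windows of tested genes. The ESRRA core TCAAGGTCA stood in 2 (2.63%, against 0.423% of all and 0.264% of those of tested genes). The YY1 core AAGATGGC stood in 12 (15.8%, against 2.75% and 3.84%), and the ETS core CCGGAAGT in 5 (6.58%, against 3.89% and 6.83%). In the members' windows no match of one core overlapped a match of another, and the NRF1 core overlapped itself on the other strand in the run GCGCATGCGC. A match is a description of the letters and shows no binding.

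Genes whose levels are discussed above, Atp5g2, Atp5g3, Atp5k, Cycs and Sdhb, are among those with an NRF1 or ESRRA core, so the 13 stretches are shown to compare them. Each is 30 bases, 5′ to 3′ in the direction of transcription, with the matched letters in capitals. The run of 10 capitals is the NRF1 core matched on both strands, 8 capitals a match on 1 strand, and 9 capitals the ESRRA core.
Atp5g2: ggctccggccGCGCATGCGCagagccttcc
Atp5k: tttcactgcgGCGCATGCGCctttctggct
Cox6a1: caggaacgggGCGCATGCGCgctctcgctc
Ndufa11: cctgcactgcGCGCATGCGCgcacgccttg
Uqcrc1: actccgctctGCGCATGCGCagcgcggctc
Atp5l: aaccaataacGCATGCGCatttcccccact
Cycs: catgctagctcGCATGCGCgcgcacaaacc
Ndufa6: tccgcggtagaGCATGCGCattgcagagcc
Ndufa8: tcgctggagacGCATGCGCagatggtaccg
Sdhb: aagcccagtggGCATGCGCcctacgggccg
Uqcr11: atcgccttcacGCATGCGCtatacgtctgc
Atp5g3: tgttacaaagTGACCTTGAgcgtcttcccc
Sdhd: tttccgggttgtagagTGACCTTGAgccct

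The stretch of Atp5g2 lies at chr15:102671070-102671099 (minus strand), with its first capital 42 bases before the start of the gene. That of Atp5g3 lies at chr2:73911359-73911388 (minus strand), 52 bases before the start of a RefSeq transcript that begins inside the gene, and that of Cycs at chr6:50566611-50566640 (minus strand), 60 bases before the start of the gene. The other subunit c gene, Atp5g1, and Ndufc2, Ndufs5, Atp5e, Cox6b2 and Cox7a2l had none of the 4 cores in their windows. The 11 genes with the NRF1 core included Cycs and Ndufa11, which were higher in differentiation medium in every line, and Atp5g2, which was lower in every line. In the control lines 8 of these 11 differences between media were positive, and in the Atrx-deleted lines 6 of 11. Beside these stand 58 and 53 of all 83 tested members, and 7704 and 8002 of all 15660 tested genes.

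The last question was whether the response to the medium differed between control and Atrx-deleted lines. None of the 83 genes passed the interaction, where 0.00639% of all genes passed, and 4 reached an unadjusted p under 0.05 (4.82%, against 7.02% of all genes). Cox5b, a nuclear subunit of complex IV that binds zinc, had the smallest adjusted p (interaction -0.85 ± 0.26, adjusted p = 0.502, limma). It went from 86.6 and 102 TPM to 145 and 101 TPM in the control lines and from 123, 133 and 124 TPM to 104.6, 84.6 and 83.2 TPM in the Atrx-deleted lines. The groups did not overlap in proliferation medium, where the Atrx-deleted lines were higher, and overlapped in differentiation medium. The other 3 were Ndufb2 (-1.21), Ndufc1 (-0.73) and Cox7a1 (2.26 ± 0.99). Cox7a1 went from 8.18 and 1.03 TPM to 0.00872 and 0.0336 TPM in the control lines. In the Atrx-deleted lines it went from 2.21, 0.00534 and 2.09 TPM to 2.50, 0.889 and 1.17 TPM. Its interaction thus rests partly on levels near the floor of the deposited values. Confidence intervals of the interaction lay within 2-fold for 48 of the 83 genes (57.8%, against 31.8% of all genes, and 61.5% against 46.0% at 10 TPM or more). For the rest the interval reached past a 2-fold difference.

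Genes that build, regulate and feed the respiratory chain were described by lists. Of 50 assembly factors none passed between Atrx-deleted and control lines in proliferation medium and 1 passed as lower in differentiation medium. This was Ndufaf2, a complex I assembly factor (71.6 ± 8.65 TPM, SD, n = 2, against 36.8 ± 8.57 TPM, n = 3; log2 difference -0.96, adjusted p = 0.0424, limma, or -0.76 and 0.0321 without the library labelled mA19d#7). In the control lines 1 assembly factor passed as lower with the medium, Coa4 (-1.72, adjusted p = 0.0156, limma). The shares of all genes that passed in these comparisons were 2.89% and 4.51%. Of 20 genes for the transcription of respiratory genes and the upkeep of mitochondrial DNA, none passed in any comparison, with medians of 0.04 to 0.08 in the comparisons of lines and of media. Ppargc1a, the coactivator that promotes mitochondrial biogenesis, was at 30.7 to 35.95 TPM in the control libraries, and at 25.2 to 31.1 TPM in proliferation and 37.5 to 47.5 TPM in differentiation medium in the Atrx-deleted lines. Of 19 genes of the citric acid cycle and pyruvate dehydrogenase, none passed between Atrx-deleted and control lines, and the medians were -0.07 and -0.20. In the control lines Mpc2, of the mitochondrial pyruvate carrier, rose in differentiation medium (0.92, adjusted p = 0.0437). Of 30 genes for carriers, porins and protein import, 1 passed as higher with the medium in the control lines. This was Timm50 (0.81, adjusted p = 0.0463, limma), and none passed elsewhere.

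Of 77 mitochondrial ribosomal protein genes, 2 passed as higher in Atrx-deleted lines in differentiation medium and none passed in proliferation medium. The 2 were Mrpl38 (1.23, adjusted p = 0.0224, limma) and Mrpl2 (1.08, adjusted p = 0.0180). Both also passed without the library labelled mA19d#7 (1.29, adjusted p = 0.0237, and 1.13, adjusted p = 0.0182). Mrpl53 fell with the medium in the control lines (-1.14, adjusted p = 0.0339). These counts stand beside the same 2.89% and 4.51% of all genes. The cytosolic ribosomal protein genes, which like many respiratory chain genes have short and abundant transcripts, moved further: their median was 0.48 and 0.36 in Atrx-deleted against control lines, and -0.55 and -0.51 between media in control and Atrx-deleted lines. Of their 81 tested genes, 1 and 5 passed as higher in the Atrx-deleted lines in proliferation and differentiation medium. Between media 1 passed as lower in each kind of line. The respiratory chain medians stayed between -0.0015 and 0.10 in the same 4 comparisons.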

How the data were processed

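The authors deposited 1 table of log2 TPM values for 21101 genes in 10 libraries. Reads were aligned with STAR to mm10, per the submitters' processing notes. Neither tool versions nor the step that gave TPM were found in the sources used here. The sorted values are the same in every library, so the deposited values were quantile-normalised, which hides changes in total expression. Depth is unknown, so no counting error can be given.

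Values were back-transformed, because the design had assumed linear TPM, and limma 3.58.1, under R 4.3.3, was run on log2(TPM + 1) with a trend of variance on level, 4 group means, 6 residual degrees of freedom and two-sided moderated tests. The 15660 genes that reached 1 TPM in 2 or more libraries were tested. P-values were adjusted over these by Benjamini-Hochberg, at 0.05. The script was tested on simulated data. Python 3.11.15 computed sums, shares and motifs, and blastn 2.17.0 matched reading frames to GENCODE M21 pseudogenes (95% identity over 80% of the frame). Protein sequences were not used here, and 1 member is not reported by name.

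Genes were named where they passed, where they were the extremes of their complex in a comparison, or as isoform sets, complex II, Cyc1 and Cycs; every other gene or member named was chosen after its values were seen. Members and lists were chosen with earlier results of these data known. The same cell line labels appear in both media, which pairs the libraries. Over all tested genes, deviations from group means correlated between a line's libraries at 0.0624 for the control lines, 0.159 for mA16d#4, 0.404 for mA19d#4 and -0.194 for mA19d#7. Over the members the values, in the same order, were -0.0829, 0.4549, 0.5575 and -0.2199. Alternatives were pseudocounts, filters, variance models, median-of-ratios factors, the line as a block and libraries left out.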

Additional observations from a re-analysis of the deposited data

Results flagged for a closer look

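For 3 genes both control lines moved one way with the medium and all 3 Atrx-deleted lines the other, a pattern shown by 3.61% of the members and 4.36% of all tested genes. Cyc1 was lower in differentiation medium in the control lines, by 0.04 to 0.07 on the log2 scale, and higher in the Atrx-deleted lines by 0.18 to 0.58, which gave an interaction of 0.38. Ndufb9 was lower in the control lines and higher in the Atrx-deleted lines (interaction 0.37). Ndufb10 was higher in the control lines and lower in the Atrx-deleted lines (interaction -0.24). The interaction did not pass for Cyc1 (adjusted p = 0.821, limma), Ndufb9 (adjusted p = 0.814) or Ndufb10 (adjusted p = 0.890).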

How the results depend on the processing

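In proliferation medium 0 members passed between Atrx-deleted and control lines. With a weight per group 5 did (Atp5e, Ndufa1, Ndufb2, Ndufc2 and Ndufs4, or 6.02%, against 4.29% of all genes). With the compared groups alone 1 did (Atp5e, 1.2%, against 0.396% of all genes). With single Atrx-deleted libraries left out 0 to 1 passed. The share was 1.2%, against 1.59% of all genes, without the library labelled mA19d#7 in differentiation medium. In differentiation medium 2 passed; 1 did with a pseudocount of 0.1 TPM, with the deposited values tested directly, with no filter, with a filter of 5 TPM, with robust estimation and with a weight per group, 0 did without the trend and with the compared groups alone, and 0 to 4 with single libraries left out, the 4 without the library labelled mA19d#7. For the medium in the control lines 0 passed. With a weight per group 12 did (14.5%, against 19.1% of all genes), and with the compared groups alone 8 (9.64%, against 13.3%). With single Atrx-deleted libraries left out 0 to 4 did. The 4 passed without the library labelled mA19d#7 in differentiation medium (4.82%, against 9.24% of all genes). Between media the replicate block on the cell line gave 0 members in either kind of line and changed no call. The block without the library labelled mA19d#7 in differentiation medium gave 7 (8.43%, against 11.7% of all genes) and 3 (3.61%, against 2.11%). Leaving out both mA19d#7 libraries gave 2 in the control lines (2.41%, against 8.36% of all genes). Both settings were chosen after seeing the data. In the Atrx-deleted lines 0 to 1 passed between media with single Atrx-deleted libraries left out. The 1 was Ndufc2, without the library labelled mA19d#7 in differentiation medium (1.2%, against 2.22% of all genes). The interaction gave 0 in every setting that left at least 2 libraries in each group. Causes were not tested. Of 136 differences of named members, 33 changed sign under at least 1 setting, in 86 values in all, and none of the 33 passed as reported. The lowest and highest log2 values with a single library left out are given for each; the interaction of Cox7a2 changed sign in other settings. Between Atrx-deleted and control lines in proliferation medium these were Cox6a2 -0.083 to 0.018, Cox7a1 -2.09 to 0.082, Cyc1 -0.057 to 0.12, Cycs -0.30 to 0.016 and Sdhd -0.043 to 0.17. In differentiation medium these were Atp5g2 -0.37 to 0.13, Cox4i1 -0.10 to 0.31, Cox6b1 -0.47 to 0.095, Cox7a2l -0.039 to 0.25, Cycs -0.098 to 0.18, Ndufa4 -0.24 to 0.21, Ndufa4l2 -0.37 to 0.61 and Sdha -0.069 to 0.052. Between media in the control lines these were Cox6b1 -0.40 to 0.17, Cox8a -0.13 to 0.27, Cyc1 -0.12 to 0.018, Ndufa4 -0.17 to 0.28 and Ndufa4l2 -0.30 to 1.19. Between media in the Atrx-deleted lines these were Cox6b1 -0.11 to 0.25, Cox7a1 -0.37 to 0.46, Cox7a2 -0.22 to 0.18, Cox7b -0.10 to 0.24, Cox8b -0.82 to 0.77, Sdha -0.020 to 0.11 and Uqcrc2 -0.34 to 0.15. For the interaction these were Atp5g1 -0.19 to 0.19, Atp5g2 -0.089 to 0.41, Atp5g3 -0.29 to 0.41, Cox6a1 -0.13 to 0.25, Cox6b1 -0.072 to 0.49, Cox7a2 -0.49 to -0.089, Cox7b -0.24 to 0.11 and Sdhc -0.16 to 0.099. Without both mA19d#7 libraries the sign also changed in differentiation medium for Atp5g2 (0.13), Ndufa4 (0.063), Ndufa4l2 (-0.37) and Sdha (0.0095). With those libraries left out, or with the replicate block and no mA19d#7 differentiation library, it changed between media in the Atrx-deleted lines for Cox8b (0.58) and Uqcrc2 (0.35), and in the interaction for Cox7a2 (0.0081) and Cox7b (0.29). Ndufa4l2 changed in differentiation medium with a pseudocount of 0.1 TPM (-0.57) and on the deposited values (-1.33). Median-of-ratios factors turned Cox7a2 between media in the Atrx-deleted lines (-0.011) and the interactions of Atp5g1 (-0.028) and Sdhc (-0.026). Of the other values 2834 kept their direction and call, 27 newly passed and 28 no longer did. Where 1 library was left of a group, its spread was taken from the other groups. Leaving out either control library in differentiation medium took Ndufb8 to adjusted p-values of 0.306 and 0.191 and Cox6b2 to 0.303 and 0.186.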

Other observations

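Smim20, which encodes a small factor of complex IV assembly and lies outside the gene lists used here, was noticed after its values were seen. It was at 30.9 and 30.8 TPM in the control lines and 23.8 TPM in mA16d#4 in proliferation medium, while mA19d#4 and mA19d#7 had 0.00668 and 0.00548 TPM. After differentiation it was at 48 and 38.8 TPM in the control lines, 19.1 TPM in mA16d#4, 0.0130 TPM in mA19d#4 and 37.3 TPM in the library labelled mA19d#7. The 3 libraries low in Smim20 are those low in Ndufs5. As for Ndufs5, the comparison of Atrx-deleted with control lines did not pass in proliferation medium (log2 difference -3.44 ± 1.58, SE, adjusted p = 0.372, limma) or in differentiation medium (-2.26 ± 1.58, adjusted p = 0.452, or -3.29 and 0.250 without the library labelled mA19d#7).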
